A study of Mus musculus with 6 samples.

Results

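The AP-1 transcription factors were followed in J774A.1, an established macrophage-like cell line from BALB/c mice, after exposure to neuropeptide FF (NPFF), an amidated peptide of the RF-amide family. The members were 10 named genes of the FOS, JUN, ATF and BATF groups, and each was measured by its brightest array feature among the features paired with its symbol alone. Of these 10 genes, 9 were measured, out of 22180 genes in all: Jun, Junb, Jund, Fos, Fosb, Fosl2, Atf3, Batf and Batf3. Fosl1 shared its only feature with Ccdc85b and has no value of its own here. The study used 6 Affymetrix whole-transcript arrays, 3 from cells given NPFF at 1 nM in phosphate-buffered saline (PBS) for 18 h and 3 from cells given PBS alone for 18 h, all cultured in RPMI-1640 supplemented with 10% fetal calf serum until 80% confluent. The sample titles call the PBS cells non-treated, and they are called control here. The titles name 3 biological replicates in each group with no word on whether the cultures were separate, so each p-value reflects sample-to-sample spread that may be technical. All 6 samples come from a single established line at a single time point, so levels at earlier times were not measured.

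AP-1 is a dimer of basic leucine zipper proteins. JUN proteins pair with themselves, with each other or with FOS proteins, whereas FOS proteins need a JUN partner to bind DNA, and the ATF and BATF proteins also join JUN proteins in such dimers. Fos, Fosb, Jun, Junb and Atf3 are known as immediate-early genes, whose transcripts appear quickly after a stimulus and decay quickly. In macrophages AP-1 factors are known for their part in the response to bacterial products and in the gene programmes of growth and activation. NPFF acts through G-protein-coupled receptors, a receptor class that can reach AP-1 genes through MAP kinases and through cAMP and CREB.

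The values below are quantile-normalized log2 intensities, and every difference is NPFF minus control on the log2 scale. Intensities of different genes come from different probes, so levels are compared only between arrays. Control 1 stood apart from the other arrays. Its differences from the mean of the other 5 arrays had a standard deviation (SD) of 0.37 over genes, against 0.11 to 0.21 for those of the other arrays. As deposited, control 1 had an interquartile range of 2.04, against 2.31 to 2.41 in the other arrays. Its deposited median was 6.38, against 6.24 to 6.29. The identity of the line rests on its label, since the arrays give no detection call. All 9 listed macrophage markers had a feature, and their mean log2 signal was 10.54 in control 1 and 10.76 to 10.86 in the other 5 arrays. The mean log2 signal over the arrays ranged from 6.16 to 6.35 for fibroblast markers, 6.06 to 6.30 for epithelial, 6.12 to 6.24 for endothelial and 5.50 to 5.69 for lymphocyte markers. The mean over the macrophage markers was 10.54 in control 1 and 10.76 to 10.86 in the other 5 arrays. The bulk arrays cannot tell fewer expressing cells from less RNA per cell.

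Promoters are shown for Jun and Atf3, which had the lowest p of the members once control 1 was left out, and for Fos, the classical partner of Jun. Each is the 250 bases before the gene's start, 5′ to 3′ on the gene's strand, from the RefSeq table of build GRCm38.p6, which held all 9 measured members. Capitals mark matches on either strand to TGANTCA (the TPA response element, the classical AP-1 site), TGANNTCA (the longer form of AP-1 and cAMP response elements), TGACG (the core of a cAMP response element) and TATAAA (the TATA box).
Jun, chr4:95052223-95052472, minus strand: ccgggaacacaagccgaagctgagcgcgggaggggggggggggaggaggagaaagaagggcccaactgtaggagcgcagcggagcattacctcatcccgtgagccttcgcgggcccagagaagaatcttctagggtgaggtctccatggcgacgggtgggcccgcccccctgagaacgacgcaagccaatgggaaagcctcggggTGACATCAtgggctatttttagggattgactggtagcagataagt
Fos, chr12:85473640-85473889, plus strand: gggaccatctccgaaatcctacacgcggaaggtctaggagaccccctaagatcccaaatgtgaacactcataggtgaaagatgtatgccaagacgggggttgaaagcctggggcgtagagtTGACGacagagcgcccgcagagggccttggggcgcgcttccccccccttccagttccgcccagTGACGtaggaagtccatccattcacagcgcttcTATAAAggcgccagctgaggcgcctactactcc
Atf3, chr1:191183334-191183583, minus strand: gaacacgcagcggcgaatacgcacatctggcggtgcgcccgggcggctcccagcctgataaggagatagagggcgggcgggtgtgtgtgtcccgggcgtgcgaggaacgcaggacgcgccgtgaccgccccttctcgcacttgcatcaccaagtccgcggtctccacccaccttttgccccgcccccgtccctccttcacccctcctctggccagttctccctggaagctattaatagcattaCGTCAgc

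The Jun promoter held TGACATCA from 45 to 38 bases before the start. The Fos promoter held TGACG at 129 to 125 and at 66 to 62 bases before the start, followed by TATAAA at 33 to 28. The Atf3 promoter held the core on the other strand, read as CGTCA, at 7 to 3 bases before the start. Over the 9 members, TGACG was present in 5 promoters (Fos, Fosb, Junb, Atf3 and Batf), against 17.77% of 32851 promoters of the same length. TGANNTCA was present in 2 (Jun and Jund), against 11.93%, and TATAAA in 1 (Fos), against 12.37%. TGANTCA was present in none of the 9 and in 6.75% of all promoters. These matches describe the letters of the windows and no binding was measured.

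No AP-1 transcript differed between NPFF and control beyond the spread of the arrays. By limma, 0 of the 9 members had a Benjamini-Hochberg adjusted p under 0.05, where 0% of all 22180 genes did, and 0 of the 9 reached an unadjusted p under 0.05, where 2.51% of all genes did. Values of NPFF and control overlapped in all 9, where the groups did not overlap in 8.58% of all genes. Of the members 6 were higher and 3 lower in NPFF, and 51.7% of all genes were higher. The members' median difference was 0.08, with a range of -0.18 to 0.18, and that of all genes was 0.0037. The adjusted p was 0.9996 for each of the 9 members, so the differences below are given as measured, with standard errors (SE) of the fit.

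**Figure D1:**
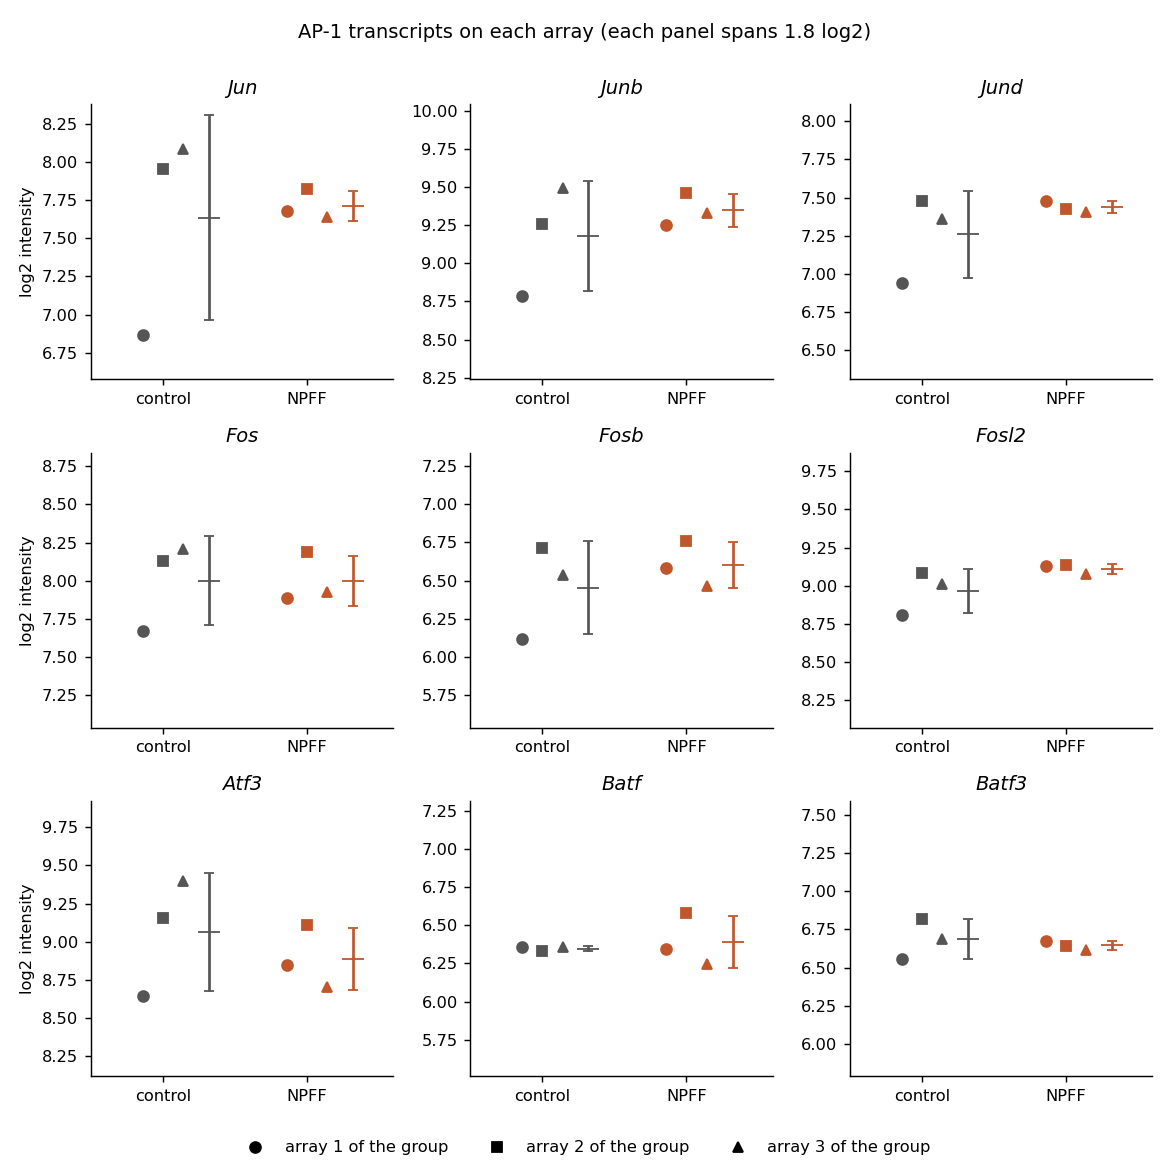
Quantile-normalized log2 intensity of each AP-1 gene on the 6 arrays, control in grey and NPFF in orange, with symbols for the arrays and a bar for the mean ± SD of 3 arrays. Control 1, the grey circle, is the lowest point in 8 of the 9 panels, and in the Jun panel it lies at 6.87 while the other 5 arrays lie between 7.64 and 8.09.

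Among the JUN genes, Jun encodes the central partner of AP-1 dimers. Controls 1, 2 and 3 read 6.87, 7.95 and 8.09, and NPFF 1, 2 and 3 read 7.68, 7.82 and 7.64. The 3 NPFF arrays lay in the gap between control 1 and the other controls. Control averaged 7.63 ± 0.67 and NPFF 7.71 ± 0.10 (SD, n = 3 each), which differ by 0.08 (SE 0.31). Its 95% interval, -0.67 to 0.83, was the widest of the 9 members and corresponds to a ratio of 0.628 to 1.77.

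Junb encodes a JUN protein that can restrain or replace Jun depending on the partner. It read 8.79, 9.26 and 9.49 across the controls, against 9.25, 9.46 and 9.33 with NPFF, so that control 3 was the highest of all arrays and control 1 the lowest. The difference was 0.17 (SE 0.18), with a 95% interval of -0.26 to 0.60. Jund, the JUN gene that is usually transcribed without a stimulus, read 6.94, 7.48 and 7.36 across the controls, against 7.48, 7.43 and 7.41 with NPFF. The NPFF values lay within 0.07 of each other, at the level of control 2. The difference was 0.18 (SE 0.14), with a 95% interval of -0.16 to 0.52.

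Jund was the sole member with a pair of features of its own, and they did not give the same sign. The other feature, of nearly equal mean signal, read 7.52, 7.34 and 7.31 across the controls, against 7.26, 7.24 and 7.32 with NPFF. On it control 1 was the highest array rather than the lowest, and the difference was -0.11 (SE 0.08). The direction of Jund was therefore not settled by these arrays.

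Among the FOS genes, Fos encodes the classical partner of JUN. It read 7.67, 8.13 and 8.21 across the controls, against 7.89, 8.19 and 7.93 with NPFF. Both groups averaged 8.00, with an SD of 0.29 in control and 0.16 in NPFF (n = 3 each), and the difference was -0.0022 (SE 0.16). The 95% interval of -0.39 to 0.38 corresponds to a ratio between 0.764 and 1.30. The sign turned in the values as deposited (0.012) and after median centring (0.014), but stayed negative after cyclic loess normalization (-0.02). It also turned without control 2, control 3, NPFF 1 or NPFF 3, at 0.06, 0.10, 0.05 and 0.03. The difference stayed negative without control 1 or NPFF 2, at -0.17 and -0.10.

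Fosb, whose protein is an inducible FOS relative, read 6.12, 6.71 and 6.54 across the controls, against 6.58, 6.76 and 6.46 with NPFF. Its difference was 0.15 (SE 0.16), with a 95% interval of -0.25 to 0.54. Without a detection call, the signal of Fosb cannot be placed above background. Fosl2, which encodes the Fos-related antigen FRA-2, read 8.81, 9.08 and 9.01 across the controls, against 9.13, 9.13 and 9.07 with NPFF. Only control 2 reached into the NPFF range of Fosl2. The difference of 0.14 (SE 0.09) had a 95% interval of -0.06 to 0.35 and the smallest unadjusted p of the members, 0.143 by limma. It was positive when any single array was left out, from 0.06 to 0.20, with 0.06 without control 1. Without control 2, Fosl2 and Jund lay above both remaining controls in every NPFF array, or 2 of 9 members, where 11.8% of all genes did so. After cyclic loess normalization of all 6 arrays the same pair lay above all controls, where 5.31% of all genes did so.

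The feature that carries both Fosl1 and Ccdc85b read 8.34, 8.37 and 8.35 across the controls, against 8.18, 8.37 and 8.12 with NPFF. Its signal cannot be assigned to either gene. The groups overlapped there, since NPFF 2 lay above all controls.

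Among the partners outside the FOS and JUN groups, Atf3 encodes a stress-induced factor that restrains inflammatory genes in macrophages. It read 8.64, 9.16 and 9.40 across the controls, against 8.85, 9.11 and 8.71 with NPFF. Controls 2 and 3 lay above every NPFF array and control 1 below every NPFF array. Control averaged 9.07 ± 0.39 and NPFF 8.89 ± 0.21 (SD, n = 3 each), which differ by -0.18 (SE 0.21) with a 95% interval of -0.67 to 0.31.

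Batf and Batf3 encode short proteins made of little more than the basic leucine zipper, known for their roles in lymphocytes and dendritic cells. Batf read 6.36, 6.33 and 6.36 across the controls, against 6.34, 6.58 and 6.24 with NPFF. It was the only member in which control 1 did not lie lowest and the only one with a larger SD in NPFF, 0.17, than in control, 0.02. Its difference was 0.04 (SE 0.10). Batf3 read 6.56, 6.82 and 6.68 across the controls, against 6.68, 6.64 and 6.62 with NPFF. The NPFF values lay between control 1 and control 3, and the difference was -0.04 (SE 0.08). As for Fosb, the signals of Batf and Batf3 cannot be placed above background without a detection call.

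Most members shared a low value on the same control array. Control 1 was the lowest of the 6 arrays in 8 of 9 members, where it was the lowest in 48.9% of all genes. The deviation of control 1 from a member's own mean over the arrays was -0.81 for Jun, -0.48 for Junb and -0.11 for Batf3, and -0.01 for Batf. Averaged over the 9 members the deviation was -0.35 in control 1, 0.12 and 0.14 in controls 2 and 3, and 0.0009, 0.14 and -0.05 in NPFF 1, 2 and 3. Over all genes the mean was 6.97 in control 1 and 7.03 to 7.07 in the other arrays. Within the NPFF group, NPFF 2 was the highest array in 7 of 9 members, where it was in 40.8% of all genes. The SD was smaller in NPFF than in control in 8 of 9 members and in 80.4% of all genes, so the members' share was near that of the background.

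**Figure D2:**
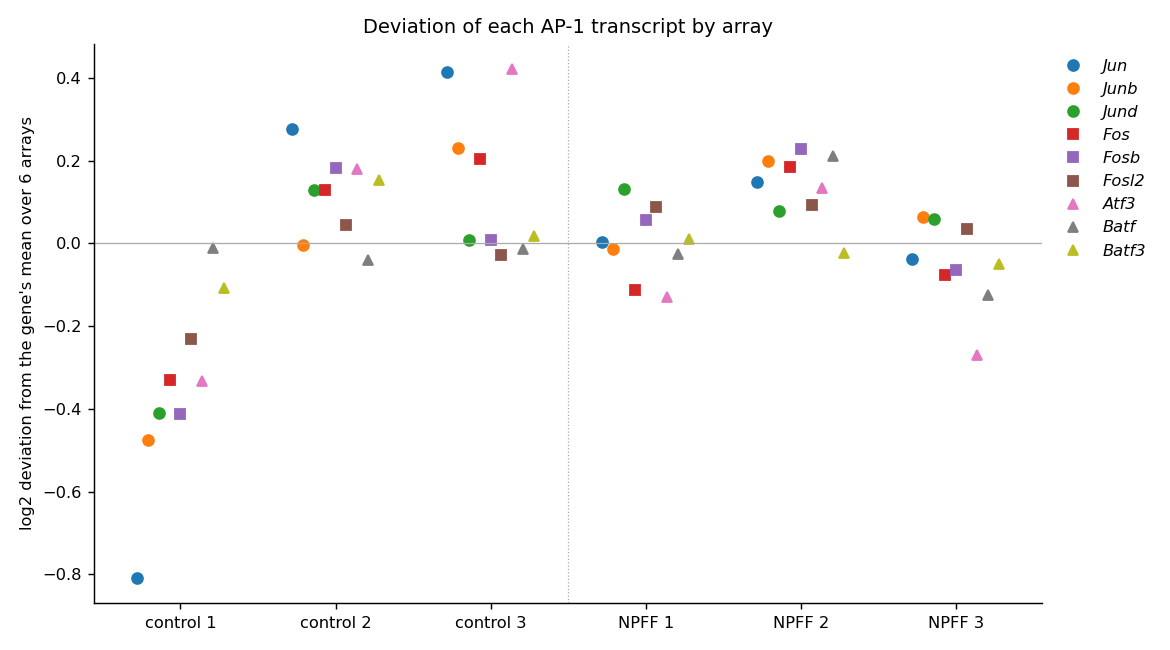
Log2 deviation of each AP-1 gene from its own mean over the 6 arrays, by array, with circles for JUN genes, squares for FOS genes and triangles for Atf3, Batf and Batf3. In control 1 the points run from -0.81 for Jun to -0.01 for Batf, all below 0, while in NPFF 2 only Batf3 lies below 0.

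Leaving out control 1 turned the sign of 3 members and left 3 of 9 above 0, where 39.1% of all genes were. Without it Jun differed by -0.31 (SE 0.08), a control level 1.24 times that of NPFF, and Atf3 by -0.39 (SE 0.12), a control level 1.31 times that of NPFF. The NPFF arrays then lay below both remaining controls in Jun, Atf3 and Batf3, or 3 of 9, where 18.3% of all genes did so. No member lay above both, where 8.97% of all genes did. By limma on these 5 arrays the unadjusted p was 0.00485 for Jun and 0.0158 for Atf3, a level under 0.05 that 10.7% of all genes reached. The adjusted p was 0.365 for Jun and 0.383 for Atf3, and 0 of the 9 members and 0 of all genes passed.

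The other members without control 1 differed by -0.17 (SE 0.10) for Fos, -0.11 (SE 0.06) for Batf3, -0.03 (SE 0.09) for Junb, -0.02 (SE 0.10) for Fosb, 0.02 (SE 0.06) for Jund, 0.05 (SE 0.10) for Batf and 0.06 (SE 0.06) for Fosl2. The members' median was -0.03 and that of all genes -0.02. Leaving out control 2 or control 3 instead moved Jun the other way, to 0.23 and 0.30. With array weights, where control 1 had a weight of 0.121 and the other arrays 0.805 to 2.37, Jun differed by -0.30 and Atf3 by -0.43, with unadjusted p of 0.0391 and 0.00893 and adjusted p of 0.579 and 0.478 by limma.

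**Figure D3:**
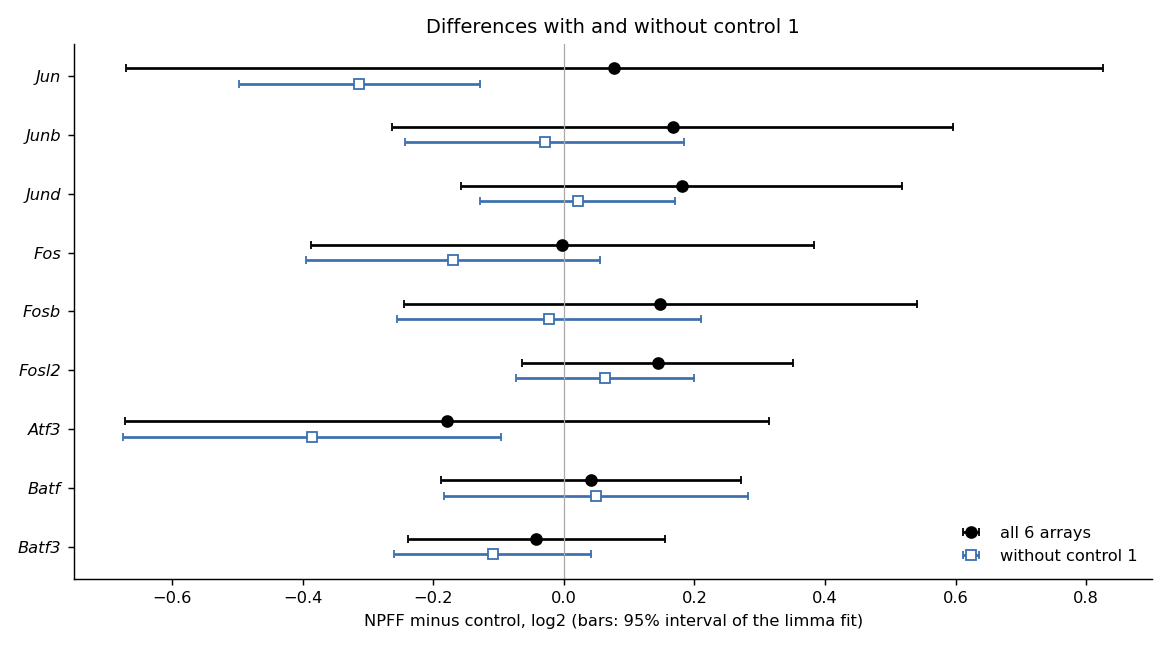
Difference between NPFF and control on the log2 scale for each AP-1 gene, with 95% intervals of the limma fit, from all 6 arrays (filled circles) and without control 1 (open squares). With all arrays every interval spans 0, and without control 1 those of Jun and Atf3 lie below 0, at -0.50 to -0.13 and -0.68 to -0.10.

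The 5 further lists held genes that act with, upstream of or downstream of AP-1, and listed genes beyond the counts given were not analysed here. By limma 0 of their 69 measured genes passed the adjusted threshold, and 3 had an unadjusted p under 0.05, or 4.35% against 2.51% of all genes. Of 13 dimer partners and basic leucine zipper relatives 12 were analysed, with 4 higher and 8 lower and a median of -0.04. Without control 1 the counts were 3 and 9 and the median -0.07. In 3 of the 12 the NPFF arrays lay below all controls, where 4.92% of all genes did so. These were Bach1, a repressor that competes for related sites, at -0.15 (SE 0.08), Atf4, a factor of the integrated stress response, at -0.10 (SE 0.06), and Batf2, an interferon-inducible BATF relative, at -0.09 (SE 0.07). Jdp2, a JUN-binding repressor, differed by 0.26 (SE 0.24) with overlapping groups, and by -0.02 without control 1.

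The MAP kinase route to AP-1 was analysed in 15 of 18 genes, with 9 higher and 6 lower and a median of 0.02. Without control 1 the counts were 4 and 11 and the median -0.05. Map3k7, the kinase TAK1 that links innate receptors to JNK, differed by -0.18 (SE 0.08), and Mapk8, the kinase JNK1 that phosphorylates JUN, by -0.11 (SE 0.07). In both the NPFF arrays lay below all controls, or 2 of 15 genes against the 4.92% of all genes. Map3k3 and Map2k1, kinases of the ERK5 and ERK routes, differed by 0.28 (SE 0.18) and 0.20 (SE 0.15) with overlapping groups. Without control 1, Map3k7 stood at -0.12, Mapk8 at -0.06, Map3k3 at 0.07 and Map2k1 at 0.05.

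All 10 listed activators of the FOS and JUN promoters were measured, with 7 higher and 3 lower and a median of 0.04, which was -0.05 without control 1. Creb1, the factor that binds cAMP response elements, differed by 0.06 (SE 0.06), with NPFF arrays above all controls, where 3.67% of all genes lay so. Its relative Crem differed by -0.13 (SE 0.10), Elk4, a partner of serum response factor, by 0.26 (SE 0.29) and Mef2d by 0.13 (SE 0.15). Crem, Elk4 and Mef2d stood at -0.06, -0.10 and -0.02 without control 1.

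Genes of AP-1 protein turnover and cofactors were analysed in 9 of 11 cases, with 4 higher and 5 lower and a median of -0.02. The median was -0.11 without control 1 and 0.0082 and 0.0083 without control 2 or control 3. Det1, which joins the ubiquitin ligase that degrades JUN, read 7.67, 7.62 and 7.59 across the controls, against 7.39, 7.40 and 7.42 with NPFF. Every NPFF array of Det1 lay below every control, and the groups were each tight. It was the only such gene, or 1 of the 9, where NPFF arrays lay below all controls in 4.92% of all genes. The difference of Det1 was -0.22 (SE 0.06), with an unadjusted p of 0.00793 and an adjusted p of 0.9996 by limma, and it was -0.21 without control 1. The coactivators Ncoa1 and Ep300 differed by -0.20 (SE 0.10) and -0.17 (SE 0.08), and Fbxw7, another ubiquitin ligase subunit that recognises JUN, by 0.13 (SE 0.13). Without control 1 these were -0.115 for Ncoa1, -0.111 for Ep300 and -0.0015 for Fbxw7.

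AP-1 target genes were analysed in 23 of 24 cases, with 8 higher and 15 lower and a median of -0.05. Mmp9, a matrix metalloproteinase, read 8.88, 9.11 and 9.04 across the controls, against 9.39, 9.32 and 9.27 with NPFF. The NPFF arrays of Mmp9 lay above all controls, with a difference of 0.32 (SE 0.08) and an unadjusted p of 0.00693 by limma. Cd44, the hyaluronan receptor, differed by -0.18 (SE 0.06) and the chemokine Ccl2 by -0.28 (SE 0.13), both with NPFF arrays below all controls. Groups thus did not overlap in 3 of the 23 targets, 1 higher and 2 lower, against 3.67% and 4.92% of all genes. Il6, a cytokine gene with an AP-1 site in its promoter, differed by -0.33 (SE 0.17) with overlapping groups. It read 5.83 to 6.51 over the arrays, and without a detection call this signal cannot be placed above background. The early response gene Ier3 differed by 0.21 (SE 0.14) and the membrane-type metalloproteinase gene Mmp14 by -0.11 (SE 0.08). Mmp14 read 6.16 to 6.44 over the arrays, with the same limit as Il6.

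Without control 1, Mmp9 stood at 0.25, Cd44 at -0.14, Ccl2 at -0.15, Il6 at -0.52, Ier3 at 0.05 and Mmp14 at -0.14. Of the targets 6 were then higher and 17 lower, with a median of -0.07, and 39.1% of all genes were higher. The NPFF arrays lay below both remaining controls in 7 of the 23 targets and above them in 1, against 18.3% and 8.97% of all genes. By limma 6 of the 23 had an unadjusted p under 0.05, where 10.7% of all genes did, and 0 passed the adjusted threshold. The adjusted p of Il6 on these arrays was 0.341 by limma.

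**Figure D4:**
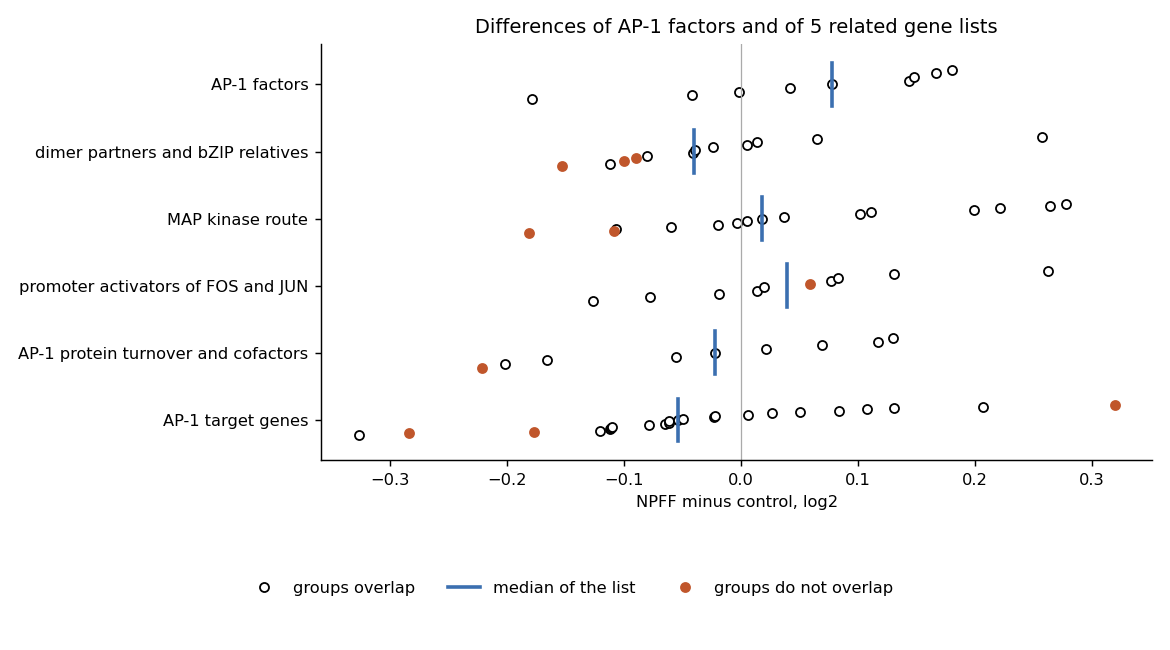
Difference between NPFF and control on the log2 scale for the 9 AP-1 genes and for the genes of 5 related lists, 1 point per gene, filled where the 2 groups of 3 arrays did not overlap, with a bar at the median of each list. The medians lie between -0.05 and 0.08, and none of the AP-1 points is filled.

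The array profiles of other genes were compared with those of Fos and Jun among 10248 brighter genes, as the root mean square distance between profiles centred on their own means over the 6 arrays. Closest to Fos was Il3ra, the interleukin-3 receptor alpha chain, at a distance of 0.027 log2, followed by Map2k6, a kinase that activates p38, at 0.033 and the ubiquitin ligase scaffold Cul4a at 0.036. The SD of Fos itself over the arrays was 0.21. Closest to Jun were Zbtb43 at 0.054, Zfpl1 at 0.062 and Dtnbp1 at 0.064, where the SD of Jun was 0.43. Zbtb43, which encodes a zinc finger protein, read 6.42 in control 1 and 7.27 to 7.61 in the other 5 arrays. The genes were picked for their closeness, so a low control 1 shared with Jun follows from the choice. The profiles are a description and no test was run on them. These 6 genes differed by 0.02 to 0.16 between the groups.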

How the data were processed

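Transcript levels of 6 samples were measured on Affymetrix whole-transcript arrays. Total RNA was extracted with TRIZOL and 500 ng was used, per the labels' protocols. The authors deposited 1 table of 33794 features, whose values were read as log2 intensities from their range of 4.59 to 14.0. For the background correction, normalization and genome build, the sources used here give nothing. The platform annotation paired 23521 features with 1 symbol, 1814 with several and 8459 with none. Sorted values departed from their mean by up to 0.17 log2 between arrays, so all features were quantile-normalized, and the brightest feature per gene was kept, which left 22180 genes.

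NPFF was compared with control by limma 3.58.1 in R 4.3.3 (lmFit and eBayes on group, 4 residual and 2.49 prior degrees of freedom, two-sided, Benjamini-Hochberg over all genes, threshold 0.05). With 3 arrays a group, the number of arrays limits the precision. The code was tested on simulated data. Members and gene lists were chosen with earlier results of these data known. Named genes were all members, the 4 genes of smallest p of each list (6 for targets), and the 3 nearest profiles to Fos and Jun above the median signal, predicted symbols left out; Det1, Mmp9 and others thus appear for a small p. Promoters came from RefSeq's GRCm38.p6 table, and no coordinates were taken from the arrays. Alternatives were other normalizations, feature choice, a filter on the dimmest 25% of genes, a replicate block, a variance trend, array weights and left-out arrays.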

Additional observations from a re-analysis of the deposited data

How the results depend on the processing

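No AP-1 member and no gene of the 5 related lists passed the adjusted threshold of limma in any setting run, and the count of all genes past it was 0 throughout. The sign of Fosl2 and Atf3 held in all 15 alternatives. Atf3 differed by -0.43 with array weights (unadjusted p 0.00893) and by -0.50 without controls 1 and 2 (unadjusted p 0.0134), with adjusted p of 0.478 and 0.965 by limma. The sign of Fos turned in the deposited values (0.0115) and after median centring (0.0139) but not after cyclic loess (-0.0245). That of Jun and Junb turned with array weights (-0.30 and -0.074) and without controls 1 and 2 together (-0.38 and -0.15). That of Jund turned with its other feature (-0.11), an alternative chosen after seeing the data. With single arrays left out, differences ranged from -0.17 to 0.10 for Fos, -0.023 to 0.27 for Fosb, -0.31 to 0.30 for Jun, -0.029 to 0.33 for Junb, 0.02 to 0.29 for Jund, -0.39 to -0.01 for Atf3, -0.053 to 0.11 for Batf and -0.11 to 0.024 for Batf3. The cause of these turns was not tested.

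Members whose groups did not overlap numbered 0 to 3 with single arrays left out. In those settings 7.16% to 18.3% of all genes lay lower and 5.52% to 11.8% higher. Without NPFF 3 the member was Fosl2, higher, where 7.87% of all genes were. After cyclic loess there were 2 (Fosl2 and Jund, higher, where 5.31% of all genes were). Without controls 1 and 2 there were 7, of which 5 were lower and 2 higher. There 26.8% of all genes lay below and 22.8% above the single remaining control, which is assumed to vary like the other arrays. Genes at an unadjusted p under 0.05 numbered 230 to 2381 with single arrays left out, 1866 with array weights and 1133 without controls 1 and 2. With the replicate number as a block there were 396 such genes and no call changed. Same-numbered deviations from the group means correlated at 0.23, 0.45 and -0.33 across genes. Control 1 and control 3 correlated better with another number than their own. Deviations within a group depend on each other, and control 1 stood apart. These correlations therefore cannot tell whether the numbers pair the samples.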
